A study of Homo sapiens with 4 samples.

Results

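The miR-30 family is represented here by 5 mature miRNAs, taken by name from the read counts of 2366 human miRNAs: hsa-miR-30e-5p, hsa-miR-30e-3p, hsa-miR-30d-5p, hsa-miR-30d-3p and hsa-miR-30b-3p (written without hsa below where no confusion arises). They were counted in small RNA from K562, a widely used line of human leukaemia cells that keep erythroid traits. The cells carried dCas9-KRAB, in which a Cas9 that no longer cuts DNA brings the KRAB repressor domain to the gene that a guide RNA names, here ERH (CRISPR interference). There were 2 doxycycline-inducible polyclonal lines, with a different ERH guide RNA each. RNA was taken after 5 days, from cells given 0.05 µg/ml of the inducer (ERH knockdown) or none (control), which makes 2 libraries per group. Every library, controls included, came from an inducible line made to carry the repressor and an ERH guide RNA. Only the knockdown libraries had doxycycline. An effect of the drug itself, or of inducing the system, therefore cannot be told apart from that of losing ERH. The libraries hold no measure of ERH mRNA. All 5 members passed the filter on low counts, as did 464 miRNAs in all.

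A miRNA hairpin is cut out of its primary transcript by the Microprocessor, a complex of the nuclease DROSHA and its partner DGCR8, and is then trimmed by Dicer to a duplex with a 5p and a 3p strand. One strand is usually kept in Argonaute and guides it to messenger RNAs that match the seed, bases 2 to 8 of the miRNA, while the other is mostly discarded. ERH, a small protein found in most eukaryotes, associates with the Microprocessor and is known for aiding the cutting of poor hairpins that lie beside a better one. In the miR-30 family the 5p strands share a seed and are the usual guides, and the miR-30a hairpin is widely used as the backbone of short hairpin RNA vectors. The comparison asks how the family's strands depend on ERH.

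The mature sequences below show what the counted strands of miR-30e have in common with those of its relatives. They are from RefSeq (GRCh38.p14), written 5′ to 3′ with the seed in capitals.
miR-30e-5p: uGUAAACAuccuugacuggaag
miR-30a-5p: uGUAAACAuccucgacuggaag
miR-30e-3p: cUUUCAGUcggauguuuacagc
miR-30a-3p: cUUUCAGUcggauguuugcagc
miR-30c-1-3p: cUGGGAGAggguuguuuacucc

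Among the counted rows with a RefSeq sequence, the seed GUAAACA of miR-30e-5p was shared with miR-30a-5p. The seed UUUCAGU of miR-30e-3p was shared with miR-30a-3p. miR-30c-5p, which has no row in the counts, also carries the seed GUAAACA. Counted from 1 at the 5′ end, miR-30a-5p differs from miR-30e-5p by the single substitution U13C, and miR-30a-3p differs from miR-30e-3p by A18G. How reads that match several of these were assigned is not given in the sources used here. Of the 9 family rows in the files, 6 matched a RefSeq mature sequence by name, and the 3 without one were miR-30d-5p, miR-30d-3p and miR-30b-3p.

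The next pair of sequences are the neighbouring hairpins that give rise to miR-30e and miR-30c-1, with both mature strands in capitals.
MIR30E: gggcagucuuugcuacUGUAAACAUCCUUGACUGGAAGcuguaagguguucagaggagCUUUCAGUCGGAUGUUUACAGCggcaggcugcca
MIR30C1: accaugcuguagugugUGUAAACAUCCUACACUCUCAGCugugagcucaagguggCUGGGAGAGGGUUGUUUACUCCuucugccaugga

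MIR30E lies at chr1:40754355-40754446 and MIR30C1 at chr1:40757284-40757372 on the plus strand, 2837 bp apart in an intron of NFYC, the gene of a subunit of the transcription factor NF-Y (GENCODE 29, GRCh38). MIR30D and MIR30B lie on the minus strand of chromosome 8, 4268 bp apart and within no annotated host gene. Each member hairpin thus has another miR-30 hairpin on its own strand within 10 kb. Folded with RNAfold, the annotated MIR30E hairpin had -0.566 kcal/mol per base and 78.3% of its bases paired, against medians of -0.452 and 71.6% over 1560 RefSeq hairpins. MIR30C1 had -0.385 kcal/mol per base and 71.9% paired. By energy per base, 19.7% of hairpins were more stable than MIR30E and 72.4% were more stable than MIR30C1. Each of these hairpins holds the letters UGU between its mature strands (searched from the last 2 bases of the 5p strand, on the RNA strand only), as 38.3% of 739 hairpins with both strands annotated do.

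The libraries held 1430434 to 2476700 human miRNA reads and 46150 to 59192 reads of 2 spike-in RNAs (frog miR-427 and fly miR-14, by their names). Whether the spike-in RNAs were added per cell or per amount of RNA is not given in the sources used here. Values per spike-in read therefore cannot be taken as amounts per cell. For the labelled cell type, 6 miRNAs of erythroid and myeloid cells were looked up. All were present, summing to 139232 to 140625 CPM (reads scaled to a library total of 1000000 miRNA reads) in controls and 144923 to 146620 CPM after knockdown. They were chosen with earlier results of these data known, so their presence is a description and no independent check. Among these, miR-144-3p was at 8058 and 7734 CPM in controls and 18704 and 16963 CPM after knockdown. miR-486-5p and miR-126-3p also had higher CPM after knockdown within each guide RNA, while miR-451a, miR-223-3p and miR-142-3p had lower CPM. Of 10 names for other cell types 7 had rows, which summed to 1040.5 to 1090 CPM in controls and 1573 to 1618.5 CPM after knockdown, without overlap. Most of this came from miR-145-5p and miR-9-5p, and miR-124-3p was at 0 in 3 libraries. The part of these markers in the results below was not tested. The direction of a change depends on how libraries are scaled to each other. The main scaling (TMM) takes the bulk of tested miRNAs as unchanged. With TMM, the change (log2) was 0.74 for miR-144-3p, -0.05 for miR-486-5p and -0.27 for miR-126-3p. It was -0.54 for both miR-223-3p and miR-142-3p, so the rise of miR-126-3p in CPM is a fall on this scale. Relative to TMM, scaling by library size raised the median change (log2) over the tested miRNAs by 0.44, and scaling by the spike-in RNAs raised it by 0.68.

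Relative to the bulk of tested miRNAs, 4 of the 5 members fell after ERH knockdown and 1, miR-30e-3p, did not change detectably. The called members were miR-30e-5p, miR-30d-5p, miR-30d-3p and miR-30b-3p (edgeR quasi-likelihood test, Benjamini-Hochberg adjusted p under 0.05). Of all tested miRNAs, 50.9% were called, 25.2% as falls and 25.6% as rises. The median log2 fold change of the members was -0.42, beside 0.06 over all tested miRNAs. With the spike-in RNAs as the scale 0 of 5 members were called in edgeR and 0 had an unadjusted p under 0.05, against 41.8% of all tested miRNAs called. However, with guide RNA as a block in that fit 3 of 5 members were called as rises, as were 72.6% of all tested miRNAs. Fits on the spike-in scale take that scale as known, so their SE and p leave out its error. The falls are thus falls relative to the typical miRNA. Count ratios of 2 strands in the same library do not depend on the scale. Members were chosen with these results known, and each guide RNA and condition has 1 library, so the p-values reflect how far these 4 libraries vary.

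**Figure D1:**
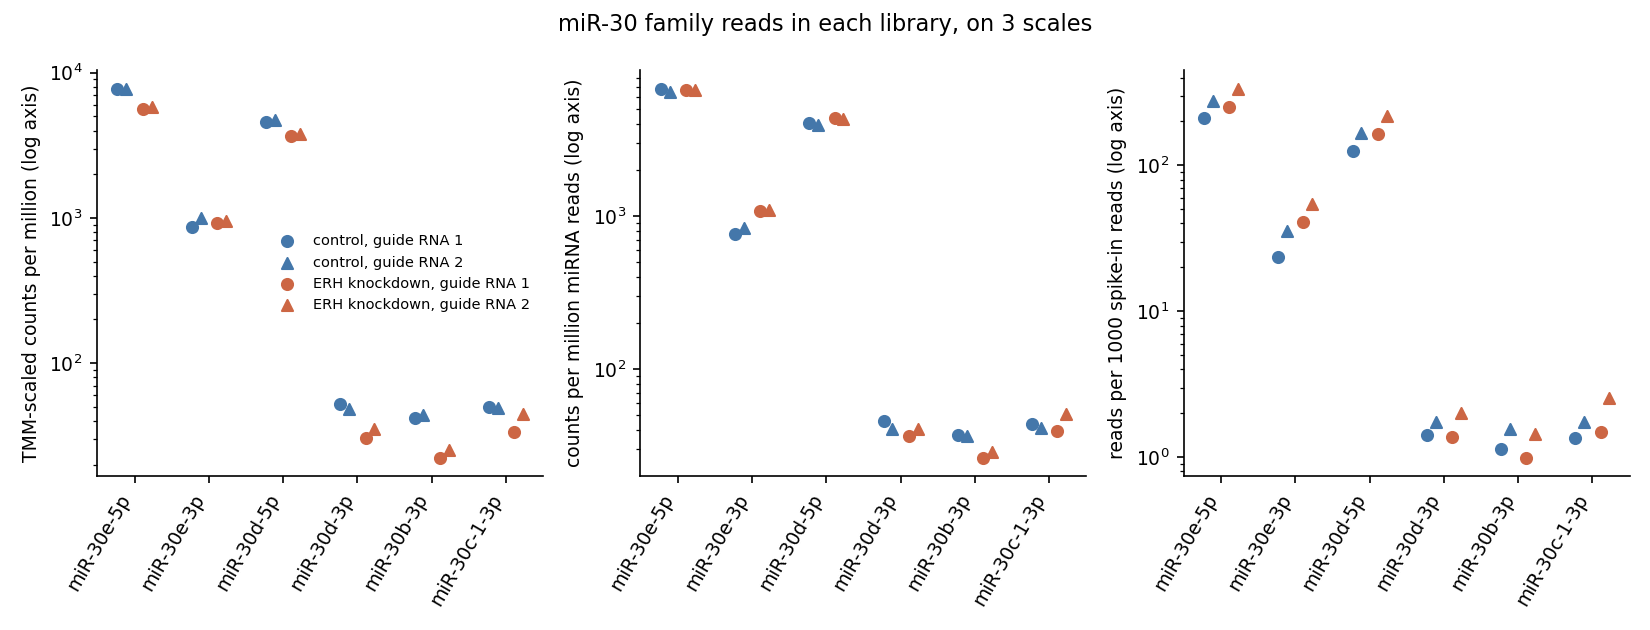
Levels of the 5 members and of miR-30c-1-3p in each of the 4 libraries, on 3 scales (TMM-scaled CPM, CPM of all miRNA reads, and reads per 1000 spike-in reads; log axes). Circles are guide RNA 1, triangles guide RNA 2, blue control and orange ERH knockdown. miR-30e-5p is lower after knockdown on the first scale, level on the second, and higher within each guide RNA on the third.

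The guide strand of the NFYC-intron hairpin, hsa-miR-30e-5p, was the most abundant member. It had 9729 and 16047 reads in the controls with guide RNAs 1 and 2, and 14931 and 16008 after knockdown. On the TMM scale these were 7717 and 7743 CPM in controls and 5673 and 5845 CPM after knockdown, so the groups did not overlap. Of the tested miRNAs, 76.3% had groups that did not overlap on this scale. miR-30e-5p fell by 0.42 ± 0.05 on the log2 scale (SE; edgeR, adjusted p = 4.94e-06), with -0.44 within guide RNA 1 and -0.41 within guide RNA 2.

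As a share of all miRNA reads, however, miR-30e-5p was level. It made up 0.680% and 0.648% of the reads in controls and 0.670% and 0.669% after knockdown, with the knockdown values between those of the controls. With library size alone its log2 fold change was 0.01 ± 0.06 (edgeR, adjusted p = 0.86). Its rank among all miRNAs by count was 23 in both controls and 28 in both knockdown libraries. Per 1000 spike-in reads it had 211 and 276 reads in controls and 252 and 334 after knockdown, which is 1.197-fold and 1.21-fold higher within guide RNAs 1 and 2. These values use the sum of both spike-in RNAs, which is mostly frog miR-427. From control to knockdown, frog miR-427 went from 40480 to 52447 reads with guide RNA 1 and from 51018 to 43458 with guide RNA 2. Fly miR-14 went from 5670 to 6745 and from 7101 to 4424, so the 2 spike-in RNAs did not move alike. With spike-in scaling and guide RNA as a block, its log2 fold change was 0.27 ± 0.06 (edgeR, adjusted p = 2.02e-05), and without the block it was 0.27 ± 0.39 (adjusted p = 0.59). The blocked SE leaves out the error of the spike-in scale itself. Without the block, the log2 fold change of miR-30e-5p was 0.23 with frog miR-427 alone and 0.55 with fly miR-14 alone.

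The other guide strand, hsa-miR-30d-5p, behaved much as miR-30e-5p did on the TMM scale. It had 5801 and 9727 reads in controls and 9732 and 10417 after knockdown. These stood at 4601 and 4693 TMM-scaled CPM in controls and at 3697 and 3803 after knockdown, without overlap. miR-30d-5p fell by 0.31 ± 0.05 on the log2 scale (SE; edgeR, adjusted p = 1.67e-04), with -0.32 and -0.30 within guide RNAs 1 and 2. Its share of miRNA reads went the other way, from 0.406% and 0.393% in controls to 0.437% and 0.435% after knockdown, again without overlap, as for 83.4% of tested miRNAs on this scale. With library size alone the log2 fold change of miR-30d-5p was 0.13 ± 0.06 (edgeR, adjusted p = 0.063). Per spike-in read it was 1.31-fold and 1.30-fold higher within guide RNAs 1 and 2, and with spike-in scaling and the guide RNA block it was called at 0.38 ± 0.06 (edgeR, adjusted p = 1.32e-08). As for miR-30e-5p, that SE and p leave out the error of the spike-in scale.

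These guide strands were abundant, and abundant miRNAs tended to fall on the TMM scale. Of the 76 tested miRNAs with a mean of 1000 CPM or more, 57.9% were called as falls, and their median log2 fold change was -0.24 (quartiles -0.47 and -0.03). miR-30e-5p and miR-30d-5p belong to this group, and their values lie between its lower quartile and its median. Among the 184 miRNAs with a mean of 10 to 100 CPM, where miR-30d-3p and miR-30b-3p lie, 19% were called as falls and the median was 0.28 (lower quartile -0.25). Both of these strands lie below that lower quartile. These abundance classes were set after the data were seen.

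**Figure D2:**
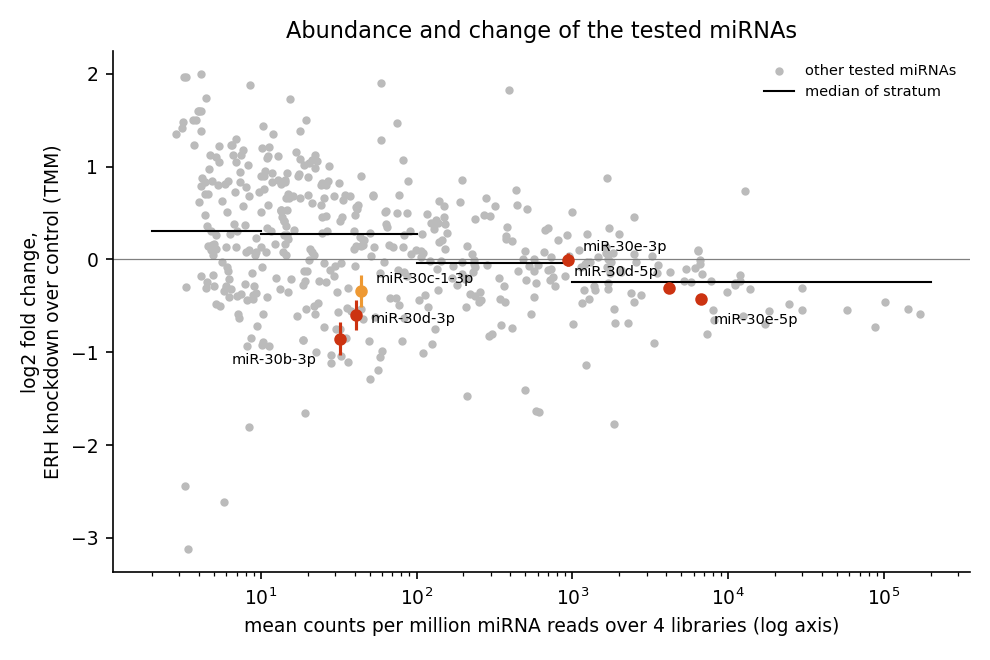
Log2 fold change (ERH knockdown over control, TMM scale) against mean abundance over the 4 libraries for the 464 tested miRNAs (grey). The 5 members (red) and miR-30c-1-3p (orange) carry SE bars, and black lines are the medians of 4 abundance classes. miR-30b-3p and miR-30d-3p lie well below the median of 0.28 of their class, while miR-30e-5p and miR-30d-5p lie between the lower quartile (-0.47) and the median (-0.24) of theirs.

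The 3p strand of miR-30e, hsa-miR-30e-3p, did not follow its partner. It had 1094 and 2072 reads in controls and 2412 and 2616 after knockdown. On the TMM scale it stood at 868 and 1000 CPM in controls and at 916 and 955 CPM after knockdown, inside the range of the controls. Its log2 fold change was -0.0016 ± 0.07 (SE; edgeR, adjusted p = 0.98), with a 95% interval of -0.16 to 0.15, so that a change of the size seen for miR-30e-5p lies outside it. Its share of miRNA reads was 0.0765% and 0.0837% in controls and 0.108% and 0.109% after knockdown, without overlap. With library size alone miR-30e-3p was called as a rise of 0.44 ± 0.08 (edgeR, adjusted p = 9.7e-06), as were 58.8% of all tested miRNAs. Per spike-in read it was 1.72-fold and 1.53-fold higher within guide RNAs 1 and 2, and with spike-in scaling and the guide RNA block it was called at 0.70 ± 0.08 (edgeR, adjusted p = 1.22e-14). Here too the SE and p leave out the error of the spike-in scale.

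The 2 members with the largest falls on the TMM scale were minor strands from chromosome 8. hsa-miR-30b-3p, the usually discarded strand of miR-30b, had 53 and 91 reads in controls and 59 and 69 after knockdown, or 42.0 and 43.9 against 22.4 and 25.2 TMM-scaled CPM. It fell by 0.86 ± 0.18 on the log2 scale (SE; edgeR, adjusted p = 0.0011), with -0.88 and -0.78 within guide RNAs 1 and 2. Its share of miRNA reads was also lower after knockdown in both lines, at 26.5 and 28.8 CPM against 37.1 and 36.7. With library size alone its value was -0.41 ± 0.19, which missed the threshold (edgeR, adjusted p = 0.052). Per spike-in read miR-30b-3p was 0.868-fold and 0.920-fold of control, a difference not called with or without the block (-0.16 and -0.17, edgeR, adjusted p = 0.49 and 0.69).

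hsa-miR-30d-3p, the minor strand of the other chromosome 8 hairpin, had 66 and 101 reads in controls and 81 and 97 after knockdown. On the TMM scale these were 52.3 and 48.7 CPM in controls against 30.8 and 35.4 after knockdown. It fell by 0.60 ± 0.16 on the log2 scale (SE; edgeR, adjusted p = 0.0076), with -0.75 within guide RNA 1 and -0.45 within guide RNA 2. Without the knockdown library of guide RNA 1 the fall was 0.51 and was not called (edgeR, adjusted p = 0.073). With library size alone it stood at -0.16 ± 0.18 (edgeR, adjusted p = 0.44), and its share in guide RNA 2 was nearly the same, at 40.5 CPM after knockdown and 40.8 in control. Per spike-in read miR-30d-3p was 0.957-fold of control within guide RNA 1 and 1.17-fold within guide RNA 2, and with spike-in scaling its value turned to 0.09 ± 0.34, or 0.10 ± 0.19 with the block, neither called (edgeR, adjusted p = 0.84 and 0.64). At this depth a single library's count of miR-30d-3p or miR-30b-3p is between 53 and 101 reads, so counting error is a large part of the spread.

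**Figure D3:**
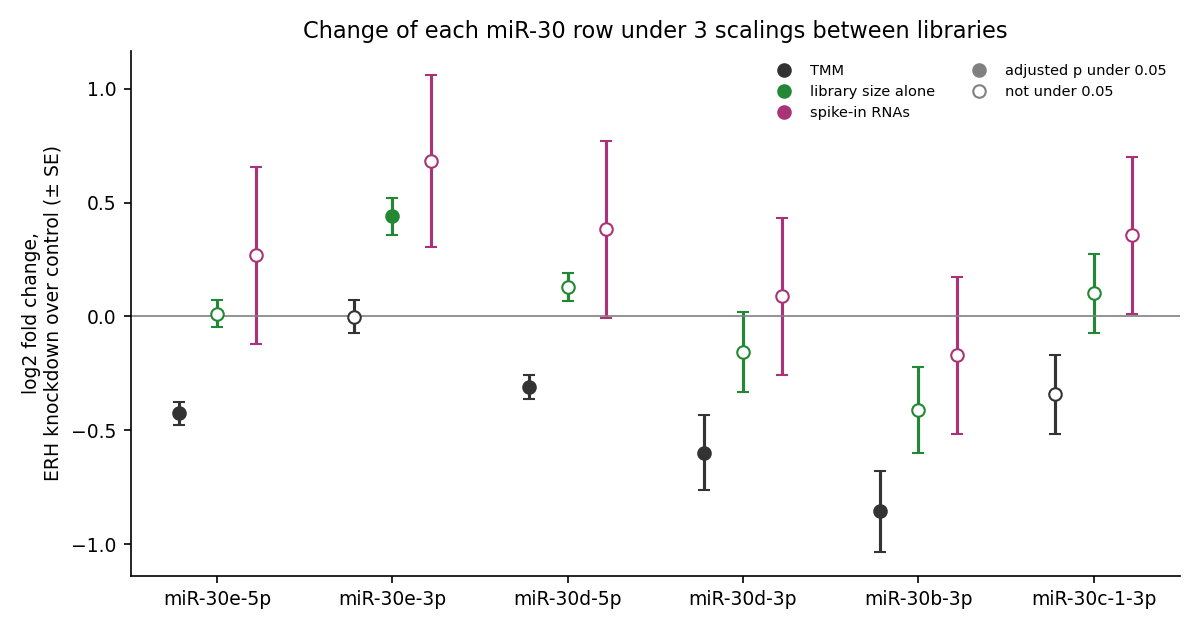
Log2 fold change of each member and of miR-30c-1-3p (ERH knockdown over control, points with SE bars) with TMM, library size alone and spike-in RNAs, fitted without a block. Filled points are called at an adjusted p under 0.05. All values shift upward together from TMM to library size to spike-ins, and miR-30e-3p lies above and miR-30b-3p below the other 4 with each of the 3.

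The arms of miR-30e parted after knockdown within each guide RNA. In controls there were 8.89 reads of miR-30e-5p per read of miR-30e-3p with guide RNA 1 (95% exact binomial interval 8.35 to 9.48) and 7.74 with guide RNA 2 (7.40 to 8.11). After knockdown there were 6.19 (5.93 to 6.47) and 6.12 (5.87 to 6.38). Both knockdown values lie below both controls, outside the counting intervals, and the knockdown values are closer to each other than the controls are. The mean ratio was 8.32 ± 0.81 in controls and 6.15 ± 0.05 after knockdown (SD, n = 2). Expressed as a share, miR-30e-3p was 10.1% and 11.4% of the reads of both arms in controls and 13.9% and 14.0% after knockdown.

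The log2 ratio of miR-30e-5p to miR-30e-3p changed by -0.43 ± 0.15 (SE), with -0.52 and -0.34 within guide RNAs 1 and 2. Over 109 hairpins with both arms tested, this ranked 19th by p and was not called (limma with 1 prior variance, adjusted p = 0.22). That fit called 0 of 109 hairpins, while 21 had an unadjusted p under 0.05. With a prior variance that follows read depth, 13 of 109 (11.9%) were called, miR-30e among them (limma, adjusted p = 0.010). With edgeR's test of arm usage on the counts, 17 (15.6%) were called, again with miR-30e (adjusted p = 9.14e-04). Whether the arm shift of miR-30e passes a threshold therefore depends on the variance model. The two-sided exact permutation test gave p = 0.333, the smallest that 4 libraries allow. Any ratio whose groups do not overlap gives this value, so the test cannot decide on the arm shift.

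For miR-30d the arm ratio moved the other way, but with less certainty. There were 87.9 reads of miR-30d-5p per read of miR-30d-3p in the control of guide RNA 1 (95% exact binomial interval 69.0 to 114) and 96.3 in that of guide RNA 2 (79.2 to 118). After knockdown there were 120 (96.6 to 151) and 107 (87.9 to 133). The groups did not overlap, but the counting intervals did within each guide RNA. The log2 ratio changed by 0.30 ± 0.15 (SE; limma with 1 prior variance, adjusted p = 0.34; 95% interval -0.10 to 0.71), with 0.45 and 0.16 within guide RNAs 1 and 2. It was not called by the depth-dependent version (adjusted p = 0.23) or by edgeR's test of arm usage (adjusted p = 0.33).

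The opposite signs of miR-30e and miR-30d were seen within both guide RNAs, but their difference was not tested. The same sign within both guide RNAs was seen for 72 of the 109 hairpins. Arm ratios without overlap between the groups were also common, at 49.5% of them. The median absolute change of the log2 arm ratio was 0.23. A change at least as large as that of miR-30e was seen for 33 hairpins including it, and at least as large as that of miR-30d for 48.

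**Figure D4:**
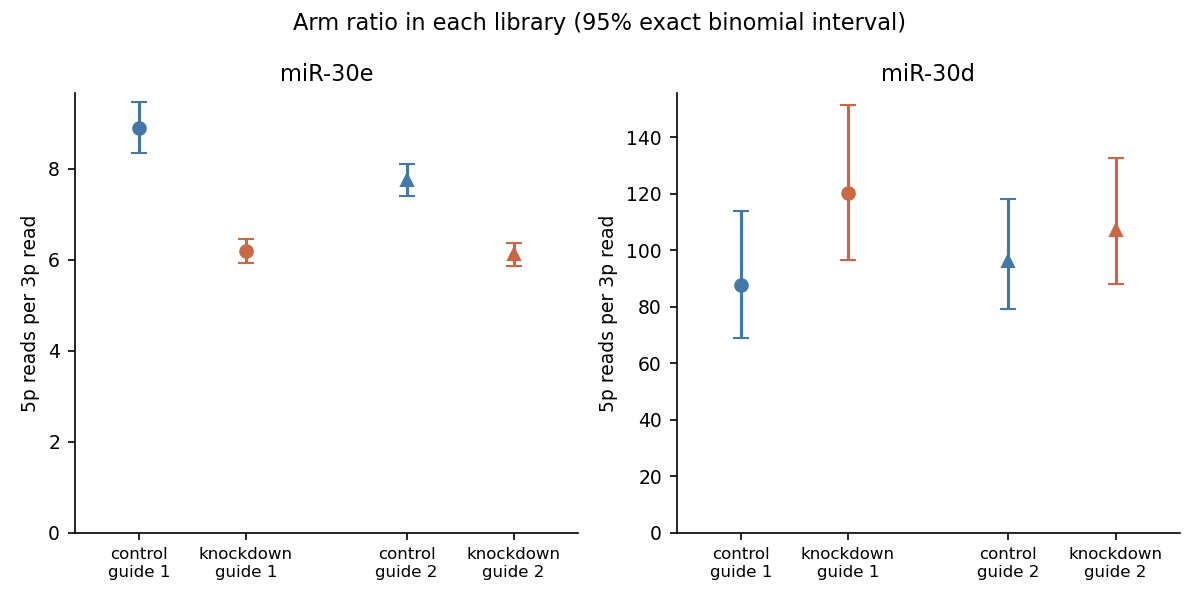
Reads of the 5p strand per read of the 3p strand for miR-30e (left) and miR-30d (right) in each library, with 95% exact binomial intervals that cover counting error only. For miR-30e both knockdown libraries (6.19 and 6.12) lie below both controls (8.89 and 7.74), and for miR-30d the intervals overlap within each guide RNA.

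**Figure D5:**
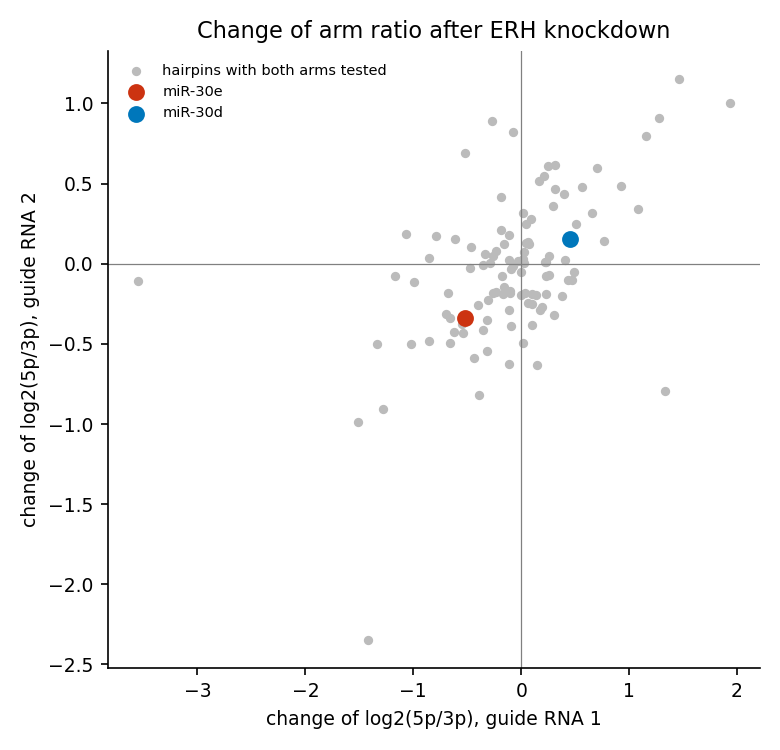
Change of the log2 ratio of 5p to 3p reads after ERH knockdown with guide RNA 1 (x axis) and guide RNA 2 (y axis) for 109 hairpins. miR-30e (red) is negative on both axes (-0.52 and -0.34) and miR-30d (blue) positive on both (0.45 and 0.16), and many other hairpins changed as much.

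The guide strands miR-30e-5p and miR-30d-5p, which come from different chromosomes and carry the family's 5p seed, also parted slightly. There were 1.68 and 1.65 reads of miR-30e-5p per read of miR-30d-5p in controls, and 1.53 and 1.54 after knockdown. The means were 1.66 ± 0.02 and 1.54 ± 0.002 (SD, n = 2), a difference larger than the spread between libraries, though small at 1.08-fold. Such separation was common among these rows, since 13 of the 15 ratios between tested family rows had no overlap between the groups. The 15 ratios reuse the same few rows, and the share over pairs of all tested miRNAs was not computed. For scale, 49.5% of the 109 arm ratios had no overlap. Of the reads of all 9 family rows, miR-30e-5p made up 57.4% ± 0.6 in controls and 54.6% ± 0.1 after knockdown (SD, n = 2). The share of miR-30d-5p was 34.5% ± 0.04 and 35.6% ± 0.08, and that of miR-30e-3p was 6.93% ± 0.60 and 8.87% ± 0.06. Together the 9 rows held 1.18% and 1.14% of miRNA reads in controls and 1.23% in both knockdown libraries. No row counts miR-30b-5p or miR-30c-5p, so neither this total nor the shares above cover the whole family.

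Within the chromosome 8 pair, miR-30b-3p was lower after knockdown relative to either strand of its neighbour miR-30d. There were 109 and 107 reads of miR-30d-5p per read of miR-30b-3p in controls and 165 and 151 after knockdown, 1.46-fold more, although the counting intervals overlap within each line. Per read of miR-30b-3p there were 1.25 and 1.11 reads of the other minor strand, miR-30d-3p, in controls and 1.37 and 1.41 after knockdown, a 1.18-fold difference that is within counting error in each line. The largest parting among the members was between miR-30e-3p and miR-30b-3p. Their ratio was 21.7 ± 1.5 in controls and 39.4 ± 2.1 after knockdown (SD, n = 2), 1.82-fold higher. Since the counts hold no row for miR-30b-5p, the values of miR-30b-3p cannot tell a change of the hairpin apart from a change of its arms.

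Of the other 4 family rows, only miR-30c-1-3p, from the hairpin beside MIR30E, passed the filter on low counts. It had 63 and 102 reads in controls and 88 and 122 after knockdown, or 49.97 and 49.2 against 33.4 and 44.5 TMM-scaled CPM. Its log2 fold change was -0.34 ± 0.17 (SE; edgeR, adjusted p = 0.11; 95% interval -0.71 to 0.03), with -0.57 and -0.14 within guide RNAs 1 and 2. It was called without the knockdown library of guide RNA 2 (-0.57; edgeR, adjusted p = 0.039). There were 154 and 157 reads of miR-30e-5p per read of miR-30c-1-3p in controls and 170 and 131 after knockdown, so this ratio moved in opposite directions in the 2 lines. Per read of miR-30c-1-3p, the other strand miR-30e-3p had 17.4 and 20.3 reads in controls and 27.4 and 21.4 after knockdown, higher within each line and without overlap, by 0.66 and 0.08 on the log2 scale, with counting intervals that overlap within each line. miR-30a-5p had 6 and 7 reads in controls and 10 and 5 after knockdown. miR-30a-3p had 1 read in the knockdown library of guide RNA 1 and none in the other libraries, and miR-30c-2-3p had 0 reads in each, which leaves room for 3 reads (1.21 to 2.10 CPM, counting error only).

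For each member, the tested miRNAs with the most similar pattern were sought by the distance of their centred log2 CPM over the 4 libraries, among 175 or 176 candidates with a mean of at least 100 CPM. miR-30e-5p was closest to miR-17-5p (distance 0.03, log2 fold change -0.45), miR-148a-3p and miR-193a-3p. miR-30d-5p was closest to miR-92b-3p (distance 0.03, log2 fold change -0.31), miR-16-5p and miR-106b-5p. The partner strand miR-30e-3p was closest to miR-99b-3p (distance 0.07), miR-486-5p and miR-101-3p, none of which was called. miR-30d-3p was nearest to miR-20a-3p (distance 0.09), miR-142-5p and miR-16-2-3p. miR-30b-3p was nearest to miR-425-5p (distance 0.08), miR-1306-5p and miR-15a-5p. The distances rest on 4 libraries.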

How the data were processed

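Small RNA was gel-purified from TRIzol extracts, per the labels' protocols. The authors deposited 1 file per library of raw read counts per mature miRNA, with 2366 human rows and 2 spike-in rows. No label names the trimming, aligner, miRNA release or build (not given in the sources used here). Members and lists were chosen with earlier results of these data known.

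Low human rows were removed by filterByExpr (a minimum count of 10, applied as a cutoff on the CPM scale, and at least 15 reads in all). TMM scaling and edgeR's quasi-likelihood test then compared knockdown with control (edgeR 4.0.16, R 4.3.3). The 464 miRNAs kept held 99.9% of the counts. Log2 CPM used a prior count of 2. Arm ratios (pseudocount 0.5) were tested with limma 3.58.1 over 109 hairpins. DESeq2 1.42.0 was an alternative, and RNAfold 2.7.2 and matplotlib 3.10.9 were used. Named miRNAs were the members, the other rows of the family, and the 3 closest in pattern to each member.

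Guide RNA numbers pair the libraries by design, since each guide RNA is its own line. Deviations of same-numbered libraries from their group means had a correlation of -0.11 across miRNAs. Within a group, libraries were not duplicates: chi-square per degree of freedom was 11.0 between controls and 4.73 between knockdown libraries. Intervals on counts cover counting error only, since the labels mention no molecular identifiers.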

Additional observations from a re-analysis of the deposited data

Results flagged for a closer look

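On the TMM scale miR-30e-3p had a log2 ratio of knockdown to control of 0.08 within guide RNA 1 and -0.07 within guide RNA 2, opposite signs around a fitted change near 0. The log2 ratio of miR-30d-5p to miR-30c-1-3p changed by 0.26 with guide RNA 1 and by -0.16 with guide RNA 2. Likewise, that of miR-30e-5p to miR-30c-1-3p changed by 0.14 and by -0.26. Both ratios rest on the 63 to 122 reads of miR-30c-1-3p. None of these differences between the guide RNAs was tested, since each has 1 library per condition.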

How the results depend on the processing

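Alternatives added after the data were seen were each spike-in RNA alone, a crossed pairing, and spike-ins or library size with guide RNA as a block. The number of miRNAs called was 236; it was 150 with DESeq2, 145 with fly miR-14 alone, and 117 to 195 when 1 library was left out (117 without knockdown replicate 1, 140 without control replicate 2). Guide RNA as a replicate block gave 230 calls and changed no call of a member on the TMM scale, and the crossed pairing gave 241.

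Scaling moved the members most. With library size alone the log2 fold change was 0.013 for miR-30e-5p, 0.44 for miR-30e-3p, 0.13 for miR-30d-5p, -0.16 for miR-30d-3p, -0.41 for miR-30b-3p and 0.10 for miR-30c-1-3p. With the block added, in the same order, it was 0.013, 0.44, 0.13, -0.16, -0.41 and 0.11. With both spike-in RNAs it was 0.27, 0.68, 0.38, 0.088, -0.17 and 0.36, and with the block added 0.27, 0.70, 0.38, 0.10, -0.16 and 0.36. With frog miR-427 alone it was 0.23, 0.65, 0.35, 0.054, -0.21 and 0.32, and with fly miR-14 alone 0.55, 0.97, 0.67, 0.38, 0.12 and 0.66. The cause of the shift between scales was not tested.

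The value of miR-30e-3p, near 0, changed sign without being called with the block (0.0042), the crossed pairing (0.0016), no low-count filter (0.016) and a mean of at least 10 CPM (0.040), and ran from -0.10 to 0.085 when 1 library was left out. Leaving out 1 library gave -0.71 to -0.51 for miR-30d-3p, whose call was lost without knockdown replicate 1, and -0.45 to -0.41 for miR-30e-5p, -0.33 to -0.30 for miR-30d-5p and -0.95 to -0.79 for miR-30b-3p, each called throughout. DESeq2, RLE factors, the other filters and leaving out the most abundant miRNA kept each of these 4 falls called.

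The miR-30e arm shift was called with the depth-dependent prior variance (-0.43) and with edgeR arm usage (-0.42), and not with the block, a pseudocount of 2, a minimum of 10 reads or 1 library left out (-0.53 to -0.33). That of miR-30d was not called under any of these (0.22 to 0.39 with 1 library left out). Counts of 53 to 101 reads per library limit miR-30d-3p and miR-30b-3p.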
